A study of Mus musculus with 6 samples.

Results

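The NF-kappaB pathway genes described here are 10 named genes of the deposited count table: the subunit genes Rela, Rel, Relb, Nfkb1 and Nfkb2, the inhibitor genes Nfkbia and Tnfaip3, the nuclear IkappaB gene Bcl3, the kinase gene Ikbkb and the ubiquitin ligase gene Traf6. They were chosen by symbol, and all 10 were found among 24421 gene symbols. The samples were whole prostates from C57BL/6 mice at 52 weeks of age, sequenced as polyadenylated RNA in 6 libraries. The control group (p62f/f) held 3 libraries from mice with floxed p62 alleles, which the labels call wild type. The knockout group (p62ffFSP1cre) held 3 libraries from mice with the same floxed alleles and a Cre named for FSP1 (S100a4), a protein of fibroblasts that some leukocytes also make; the series title speaks of the stroma. The control labels name no Cre, so an effect of Cre itself and the loss of p62 cannot be told apart.

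NF-kappaB factors are dimers that bind DNA through a shared Rel homology domain. RelA, c-Rel and RelB carry activation domains, while p50 and p52 are cut from the precursors encoded by Nfkb1 and Nfkb2 and lack them. In resting cells IkappaB proteins hold the dimers in the cytoplasm until the IKK complex, of which Ikbkb encodes the beta kinase, marks IkappaB for degradation. TRAF6 carries signals from interleukin-1, Toll-like and RANK receptors to IKK through lysine-63-linked ubiquitin chains, and p62 is known to bind TRAF6 and to promote that step. The question here is whether the RNA of these genes differed between whole prostates of the 2 genotypes.

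Libraries within each group varied in how alike they were. Total counts ran from 12826463 to 26910053. Spearman correlations across tested genes were 0.985 for control 1 with control 2 and 0.986 for knockout 2 with knockout 3. They were 0.942 and 0.938 for control 3 with the other controls, and 0.958 and 0.953 for knockout 1 with the other knockouts. Control 1 and control 2 correlated more with knockout 2 and knockout 3 (0.943 to 0.948) than with control 3. Adipocyte markers summed to 1094 CPM (counts per megaread of library size, scaled by TMM factors) in control 3 and to 4.44 to 63.7 CPM in the other 5 libraries. Tgm4 and Pbsn, secretory genes of the prostate, summed to 567 CPM in control 3, to 41760 and 43060 CPM for the other controls, and 65380 to 82890 CPM for knockouts. Sbp, Sbpl and Spink1, secretory genes listed here as ventral, summed to 49130 to 164600 CPM across controls and to 3.03 to 91.8 CPM across knockouts, with no overlap. The share of each prostate lobe in the libraries was not measured, and its part in the results below was not tested. The tissue label was met by 10 of 10 luminal markers in each library, with sums of 3707 to 5425 CPM across controls and 5615 to 5892 CPM across knockouts, and seminal vesicle markers summed to at most 2.48 CPM. Sqstm1, which encodes p62, averaged 355 ± 57.4 CPM in controls and, in knockouts, 463 ± 76.8 CPM (SD, n = 3 each) with an adjusted p of 0.355 (edgeR), so whole-organ RNA did not check the label of a deletion limited to stroma. In bulk tissue fewer cells of a type and less RNA per cell cannot be told apart, which holds for each result below. Each library title ends in a number of its own, but the labels do not say that it marks a mouse, so the p-values measure the spread between these libraries and part of it may be technical.

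Promoters are shown for 3 members that bear the best known NF-kappaB feedback roles, so that their letters can be read beside their levels. A promoter here runs from 250 bases before to 50 bases after a RefSeq start (GRCm38.p6), and 7 of the 10 members had an entry in the table used. Capitals mark matches to the 10-base NF-kappaB consensus on either strand, and overlapping matches run together. Nfkbia lies on the minus strand at chr12:55492598-55492897, Bcl3 on the minus strand at chr7:19822706-19823005, and the upstream Tnfaip3 start on the minus strand at chr10:19015361-19015660.
Nfkbia: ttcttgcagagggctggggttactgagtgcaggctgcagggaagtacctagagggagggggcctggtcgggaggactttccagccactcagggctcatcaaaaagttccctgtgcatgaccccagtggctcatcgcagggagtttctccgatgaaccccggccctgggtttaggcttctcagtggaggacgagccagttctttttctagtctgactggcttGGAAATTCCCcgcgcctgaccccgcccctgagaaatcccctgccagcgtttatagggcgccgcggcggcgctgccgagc
Bcl3: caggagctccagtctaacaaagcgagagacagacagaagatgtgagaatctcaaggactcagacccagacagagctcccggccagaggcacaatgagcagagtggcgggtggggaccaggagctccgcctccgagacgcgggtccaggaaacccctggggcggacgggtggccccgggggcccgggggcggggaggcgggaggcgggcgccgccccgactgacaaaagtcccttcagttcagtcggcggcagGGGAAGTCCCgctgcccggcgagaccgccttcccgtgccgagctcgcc
Tnfaip3: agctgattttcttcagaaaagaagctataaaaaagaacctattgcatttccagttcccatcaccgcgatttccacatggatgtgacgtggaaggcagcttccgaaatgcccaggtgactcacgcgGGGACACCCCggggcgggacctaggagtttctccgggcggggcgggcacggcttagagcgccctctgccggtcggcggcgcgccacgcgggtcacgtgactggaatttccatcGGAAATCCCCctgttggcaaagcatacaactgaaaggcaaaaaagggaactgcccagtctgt

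The consensus was found in the promoters of 5 of the 7 members: Nfkb2, Rel, Nfkbia, Tnfaip3 and Bcl3. Over all genes in the RefSeq set 9.55% had a match in at least 1 promoter. The promoters of Rela and Traf6 held none. In Nfkbia the match GGGAATTTCC lies on the opposite strand and covers the bases from -29 relative to the start. In Bcl3 the match GGGAAGTCCC begins 3 bases into the transcript, and it matches on both strands. Tnfaip3 has one match from -125 and another from -12, and its second annotated start has none. Rel has overlapping matches from -92, and each of the 3 Nfkb2 starts has at least 1 match. The 5 members with a match had log2 fold changes (knockout minus control) of 0.09, -0.05, 0.90, -0.20 and 0.67 in the order above. For Nfkb2, Rel and Tnfaip3 the SE (0.23, 0.47 and 0.24) exceeded the difference, so no direction can be read. Nfkbia and Bcl3 were higher in every knockout, and neither passed in edgeR. A link between match and level was not tested. A match is only a description of letters in this window.

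Of the 10 members, 1 passed the test between genotypes and it was lower in the knockout: Nfkb1. The share of all 13762 tested genes past the same threshold (adjusted p under 0.05, edgeR's quasi-likelihood test) was 5.07%, with 4.66% lower and 0.414% higher, and with 10 members a single call is not read as a result about the set. An unadjusted p under 0.05 was reached by 2 members, Nfkb1 and Nfkbia, against 22.1% of all genes. The groups did not overlap for 4 members, against 32.4% of all genes. Nfkb1 was lower in every knockout library (18.3% of all genes), and Nfkbia, Relb and Bcl3 were higher in every knockout library (14.1% of all genes). The members had a median log2 fold change of 0.09, and the median over all tested genes was 0.03. The plot of member levels by library shows these values.

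**Figure D1:**
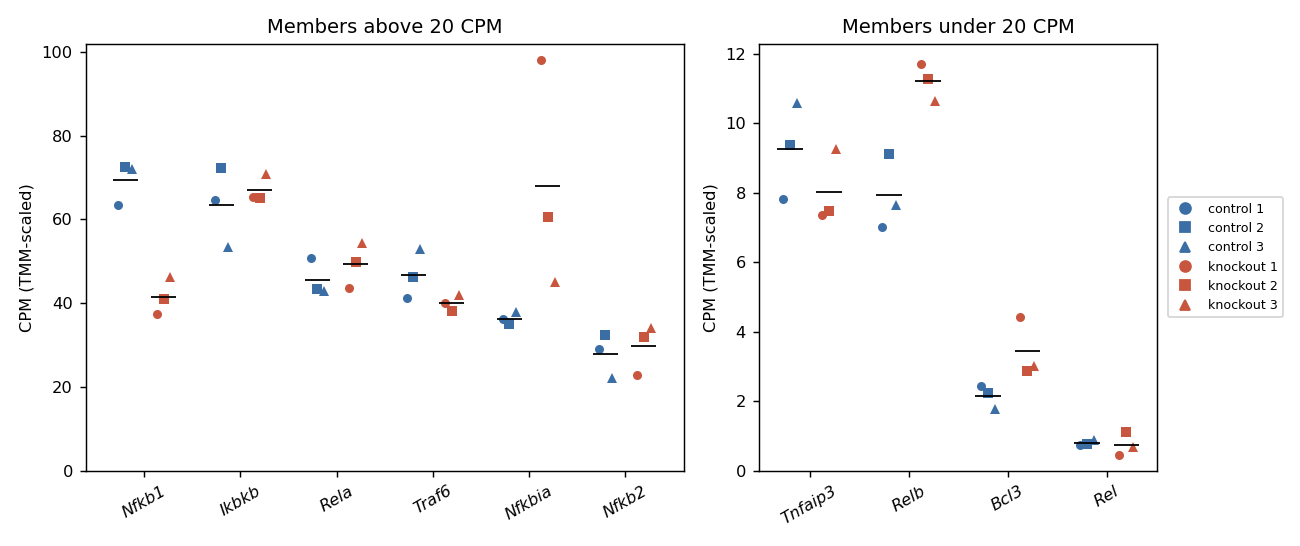
Level of each member in TMM-scaled CPM (linear axis from 0) in each of the 6 libraries, with group means as black lines. Nfkb1 sits at 63.4 to 72.5 CPM across controls and 37.5 to 46.1 CPM across knockouts, and Nfkbia spreads from 45.1 to 98.1 CPM among knockouts against 35.0 to 37.9 CPM in controls.

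Nfkb1, the precursor gene of p50 (GRCm38 chromosome 3, 135584655 to 135691547, minus strand), stood at 63.4, 72.5 and 72.0 CPM for control 1, 2 and 3, against 37.5, 40.9 and 46.1 CPM in knockout 1, 2 and 3. The lowest control therefore stood above the highest knockout, and control 3, which stood apart in its other genes, lay beside control 2. The group means were 69.3 ± 5.09 and 41.5 ± 4.35 CPM (SD, n = 3 each). The level was 1.67-fold lower in the knockout (log2 fold change -0.74 ± 0.16 SE; adjusted p = 0.0400, edgeR), and its rank by p was 597 among the tested genes. The call was lost when any 1 library was left out, at adjusted p of 0.0685 to 0.161 with log2 fold changes of -0.82 to -0.67. It was also lost with upper-quartile scaling (adjusted p = 0.0620) and with no count filter (adjusted p = 0.0584). It was kept with the RLE factors of DESeq2, with library size alone, in limma-voom, at a filter of 1 CPM, without control 3 and knockout 1 together (log2 fold change -0.64; adjusted p = 0.0433), where 8.76% of genes passed, and in DESeq2 (adjusted p = 0.00243), where 11.8% of genes passed. Beside Nfkb1, basal markers summed to 95.9 to 141 CPM in control and 145 to 255 CPM in knockout libraries, and to overlapping values without Krt15. Endothelial markers summed to 49.0 to 56.2 and 68.3 to 92.8 CPM, but without Emcn to 34.6 to 53.5 and 30.4 to 70.0 CPM, which overlapped. Smooth muscle markers summed to 1076 to 2509 and 2434 to 3749 CPM, which overlapped, but without Myh11 to 741 to 1655 and 2088 to 2670 CPM, which did not. Of these 8 markers 6 had no overlap, all higher in knockouts (14.1% of all genes), and 0 passed. No basal, endothelial or smooth muscle marker was at 0 in any library. Fibroblast markers summed to 461 to 792 CPM in control and 509.5 to 759 CPM in knockout libraries, which overlapped. Skeletal muscle markers summed to 42.4 to 73.15 and 35.6 to 85.8 CPM, which also overlapped. Of the 4 tested skeletal muscle markers, Myh1 and Myh2 passed, both lower in the knockout (adjusted p = 0.00981 and 0.0110, edgeR). The other 2 had positive log2 fold changes. The part of these cell types in the Nfkb1 result was not tested.

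The other precursor gene, Nfkb2, which encodes p100 and p52 of the alternative pathway, was at 28.9, 32.4 and 22.2 CPM for control 1, 2 and 3, against 22.9, 32.0 and 34.1 CPM in knockout 1, 2 and 3. Its lowest value in each group lay in the library that was least like its group, control 3 and knockout 1, and the groups overlapped throughout. The difference was 0.09 ± 0.23 on the log2 scale (SE; adjusted p = 0.834, edgeR). Part of Nfkb2 overlaps Psd on the opposite strand, and the strand setting of the counting is not given in the sources used here. Psd itself stood at 3.53 to 6.72 CPM.

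Rela, the gene of the main activating subunit, was at 50.7, 43.3 and 42.8 CPM across controls and at 43.7, 49.9 and 54.3 CPM across knockouts. The groups overlapped, with means of 45.6 ± 4.43 and 49.3 ± 5.34 CPM (SD, n = 3 each) and a log2 fold change of 0.11 ± 0.16 (SE; adjusted p = 0.707, edgeR). Relb, the gene of the activating partner of p52, was at 7.03, 9.13 and 7.65 CPM across controls and at 11.7, 11.3 and 10.7 CPM across knockouts. All 3 knockouts lay above all 3 controls, yet the log2 fold change of 0.50 ± 0.22 (SE) had an adjusted p of 0.233 (edgeR). Rel, the gene of c-Rel, a subunit best known from lymphocytes, had only 6 to 27 counts per library. It was at 0.73, 0.77 and 0.89 CPM across controls and 0.45, 1.12 and 0.69 CPM across knockouts, and with an SE of 0.47 around a log2 fold change of -0.05 no difference was detectable at this depth.

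**Figure D2:**
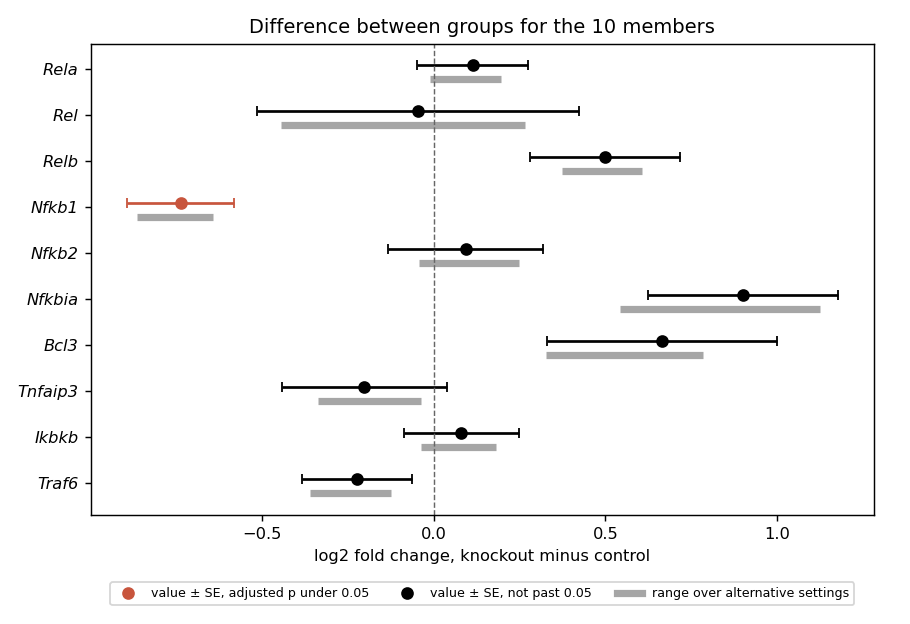
Log2 fold change, knockout minus control, for the 10 members in edgeR (points; bars are SE), with the range over the 14 alternative settings (13 for Rel) as grey lines. Nfkb1 is the member past the threshold, and Rel, Rela, Nfkb2 and Ikbkb have ranges that cross 0.

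Since Nfkb1 and Rela partner in the main dimer, their counts were set side by side within each library, where library scaling cancels. There were 125, 167 and 168 counts of Nfkb1 per 100 counts of Rela for control 1, 2 and 3, against 85.9, 82.0 and 85.0 for knockout 1, 2 and 3. Every control had more Nfkb1 than Rela counts and every knockout had fewer. These are ratios of counts and not of molecules, since the 2 transcripts differ in length. The same ratio for Nfkb2 was 61.3 ± 12.1 in controls and 59.8 ± 6.36 in knockouts (SD, n = 3 each), and for Relb 17.6 ± 3.62 and 23.0 ± 3.63, with overlap in both. Of the 9 members set against Rela, Nfkb1 and Bcl3 had no overlap between groups. In a two-sided exact permutation test over libraries both had p = 0.1, unadjusted for the 9 ratios and the smallest p that 3 against 3 libraries allow, and the other 7 had p from 0.2 to 1. The ratios were not among the planned tests and were chosen with results of these data known.

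**Figure D3:**
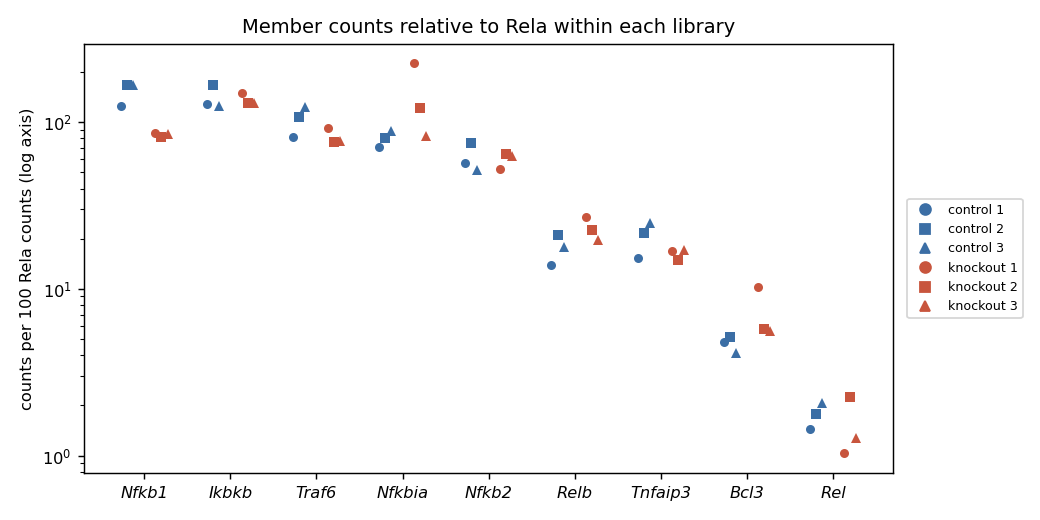
Counts of each other member per 100 counts of Rela within each library, on a log axis, with 1 point per library. For Nfkb1 the controls lie at 125 to 168 and the knockouts at 82.0 to 85.9, while Nfkbia reaches 225 in knockout 1 and 83.1 in knockout 3.

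Of Nfkbia, Bcl3 and Tnfaip3, Nfkbia had the largest log2 fold change, with tight controls and a wide spread in CPM among the knockouts. It encodes IkappaB-alpha, which NF-kappaB itself induces and which returns the dimers to the cytoplasm. Nfkbia lies on the minus strand of chromosome 12 (55489410 to 55492647). It was at 36.1, 35.0 and 37.9 CPM for control 1, 2 and 3, against 98.1, 60.5 and 45.1 CPM in knockout 1, 2 and 3. The controls were tight, at 36.3 ± 1.45 CPM, while the knockouts, at 67.9 ± 27.2 CPM (SD, n = 3 each), differed among themselves by more than the lowest of them differed from the controls. The difference was 0.90 ± 0.28 on the log2 scale (SE; adjusted p = 0.123, edgeR), and it passed in DESeq2 (adjusted p = 0.0394). Without control 3 and knockout 1 together it was 0.57 (adjusted p = 0.101, edgeR).

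Immediate early genes, which react to the handling of tissue, summed to 484 to 490 CPM in the 3 controls and to 489, 523 and 421 CPM in knockout 1, 2 and 3. All 13 of these genes had counts in every library. Within that sum the genes differed. Egr1 was at 46.0 CPM and Fos at 16.1 CPM in knockout 1, against at most 19.7 and 10.4 CPM in the other 5 libraries. Btg2 fell, with means of 103 ± 37.7 CPM in controls against 28.3 ± 4.54 CPM in knockouts (SD, n = 3 each). It was the 1 of 13 that passed (adjusted p = 0.0102, edgeR). The groups did not overlap for 5 of the 13 (32.4% of all genes). Btg2, Ier2 and Dusp1 were lower in every knockout, and Atf3 and Nr4a1 were higher. The part of these genes in the Nfkbia values was not tested. Leukocyte markers, 22 in all, summed to 152 to 349 CPM across controls and 314 to 494 CPM across knockouts. Cd74, an MHC class II chaperone gene, gave 338 of the 494 CPM in knockout 1. Without Cd74 the sums were 99.0, 77.2 and 226 CPM for control 1, 2 and 3 and 156, 160 and 186.8 CPM for knockout 1, 2 and 3, which overlapped. Without Lyz2 instead they were 112.9, 145.3 and 247.7 CPM for control 1, 2 and 3. The knockouts then stood at 417.7, 255.3 and 376.6 CPM, with no overlap. At most 1 leukocyte marker was at 0 in a library, and the part of these cells in the values was not tested.

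Tnfaip3 encodes A20, a ubiquitin-editing enzyme that ends signalling from TRAF6 and RIPK1 and is itself an NF-kappaB target. It was at 7.81, 9.38 and 10.6 CPM across controls and 7.36, 7.46 and 9.27 CPM across knockouts, and the groups overlapped (log2 fold change -0.20 ± 0.24 SE; adjusted p = 0.639, edgeR). Bcl3 encodes a nuclear IkappaB protein that binds p50 and p52 homodimers. It was at 2.44, 2.23 and 1.78 CPM across controls and 4.43, 2.86 and 3.03 CPM across knockouts. The knockouts lay above the controls at these low levels, with 26 to 79 counts per library, and the log2 fold change of 0.67 ± 0.34 (SE) had an adjusted p of 0.287 (edgeR). It was 0.33 (adjusted p = 0.606) without control 3 and knockout 1 together.

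Traf6, the partner of p62, was at 41.2, 46.2 and 52.9 CPM for control 1, 2 and 3, against 40.1, 38.1 and 41.9 CPM in knockout 1, 2 and 3. The lowest control lay within the knockout range. The means of 46.8 ± 5.85 and 40.0 ± 1.91 CPM (SD, n = 3 each) gave a log2 fold change of -0.22 ± 0.16 (SE), with an adjusted p of 0.429 (edgeR). Ikbkb, the kinase gene, was at 64.7, 72.3 and 53.4 CPM across controls and 65.3, 65.1 and 70.9 CPM across knockouts. Its groups overlapped, with a log2 fold change of 0.08 ± 0.17 (SE) and an adjusted p of 0.802 (edgeR).

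Levels were compared between members per kilobase of annotated exon, which joins the exons of all GENCODE M21 transcripts. This understates genes with long rare exons, such as Ikbkb (19.08 kb joined) and perhaps Nfkb1 (12.06 kb joined). The places of these genes among the members therefore depend on the length used. In controls Nfkbia stood highest at 22.6 ± 0.899 CPM per kb, followed by Rela at 14.8 ± 1.44 (SD, n = 3 each). Next came Nfkb2 at 6.08 ± 1.13, Traf6 at 5.93 ± 0.742 and Nfkb1 at 5.75 ± 0.422 CPM per kb, which did not differ beyond their spread on this measure. Ikbkb followed at 3.33 ± 0.498, Relb at 2.04 ± 0.278, Tnfaip3 at 1.28 ± 0.193, Bcl3 at 0.869 ± 0.137 and Rel at 0.107 ± 0.0110 CPM per kb. In knockouts Nfkb1, at 3.44 ± 0.360 CPM per kb, lay below Traf6 at 5.08 ± 0.242 and beside Ikbkb at 3.52 ± 0.173. Bcl3 at 1.39 ± 0.349 and Tnfaip3 at 1.11 ± 0.149 CPM per kb overlapped there. The level of Rel was the lowest of the 10 in every library.

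**Figure D4:**
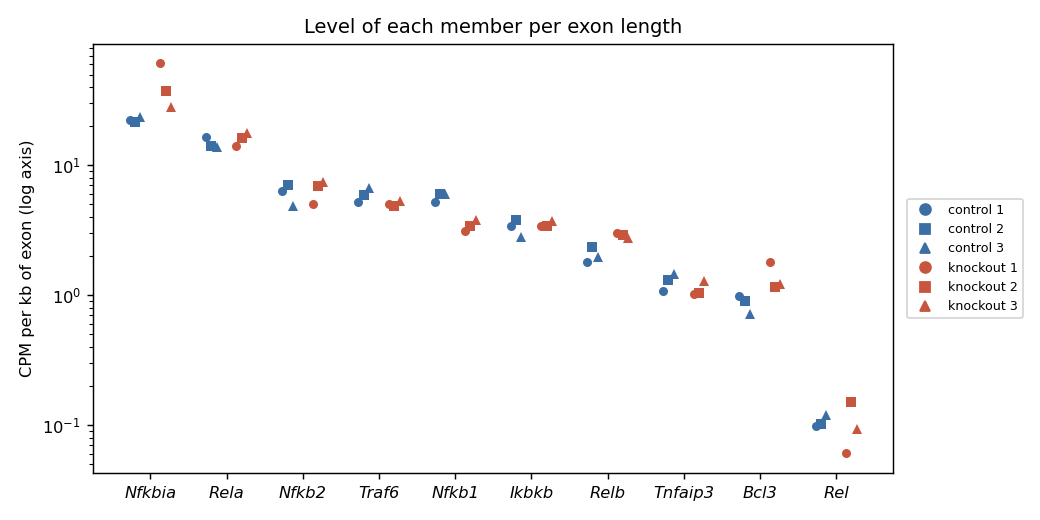
Level of each member in CPM per kilobase of annotated exon, on a log axis, with 1 point per library and members ordered by their control mean. Nfkb1 lies beside Traf6 and Nfkb2 in controls (5.26 to 6.01) and beside Ikbkb in knockouts (3.11 to 3.83), places that depend on its joined exon length of 12.06 kb.

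The genes whose profile over the 6 libraries was most like that of Nfkb1 were Cnnm2, Adamts1 and Slc35f5, with root mean square differences of centred log2 CPM of 0.05, 0.07 and 0.07 among 11244 candidates. Slc35f5 passed the test (log2 fold change -0.83; adjusted p = 0.0266, edgeR), and the other two did not. For Traf6 the nearest were Mthfd1, Pla2g15 and Papd7, at 0.04, 0.04 and 0.05. Among the members themselves the nearest pair was Tnfaip3 and Traf6, at 0.08. Nfkb1 lay 0.28 from Traf6 and 0.89 from Nfkbia.

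The rest of the pathway was read from 6 lists of genes around the members. In the list of kinases and ubiquitin factors 0 of 28 tested genes passed in edgeR, with 2 at an unadjusted p under 0.05 (22.1% of all genes) and 1 past the threshold in DESeq2 (11.8%). That gene was Birc3, which encodes the ubiquitin ligase cIAP2. Birc3 was at 103, 87.3 and 90.7 CPM across controls and 56.1, 67.3 and 56.2 CPM across knockouts, so the groups did not overlap (log2 fold change -0.64 ± 0.16 SE; adjusted p = 0.0710 in edgeR and 0.00961 in DESeq2). Tax1bp1, an adaptor of A20, and the kinase gene Tbk1 had log2 fold changes of -0.49 and 0.43 (adjusted p = 0.219 and 0.249, edgeR). The list median was 0.05.

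Of receptors and adaptors, 0 of 19 tested passed in edgeR and 13 had negative log2 fold changes, with a median of -0.07. An unadjusted p under 0.05 was reached by 5 of the 19 (22.1% of all genes), and 2 passed in DESeq2 (11.8% of all genes), so both counts are near the background. Tnfrsf11a, which encodes RANK, the receptor whose signal runs through TRAF6, was at 11.1, 11.9 and 9.29 CPM across controls and 4.73, 6.26 and 7.28 CPM across knockouts. All knockouts were below all controls (log2 fold change -0.82 ± 0.26 SE; adjusted p = 0.128 in edgeR and 0.0411 in DESeq2). Tlr2, a Toll-like receptor gene, was at 6.25, 5.68 and 11.3 CPM across controls and 3.61, 3.44 and 3.83 CPM across knockouts (adjusted p = 0.122 in edgeR and 0.0379 in DESeq2). Il1r1, the interleukin-1 receptor gene, was at 67.3, 68.4 and 85.8 CPM across controls and 22.7, 58.6 and 30.7 CPM across knockouts (adjusted p = 0.155, edgeR). Knockout 2 lay nearest to the controls, and without it the log2 fold change of Il1r1 was -1.46 (adjusted p = 0.0401). These 3 genes had the smallest p of the list. The groups did not overlap for 6 of the 19 (32.4% of all genes), 4 lower and 2 higher in the knockout, the latter Tnfrsf1a and Ltbr (log2 fold changes 0.33 and 0.13; adjusted p = 0.256 and 0.607, edgeR).

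The list of other inhibitors holds other IkappaB genes and also feedback partners. In it 0 of 10 tested passed in edgeR, 5 had an unadjusted p under 0.05 (22.1% of all genes) and 1 passed in DESeq2 (11.8%). The groups did not overlap for 8 (32.4%), 3 higher and 5 lower. Tnip1, which encodes an A20-binding inhibitor, was at 26.3, 26.5 and 37.0 CPM across controls and 15.4, 17.1 and 18.8 CPM across knockouts (log2 fold change -0.81 ± 0.21 SE; adjusted p = 0.0770 in edgeR and 0.0162 in DESeq2). N4bp1 and Zfand5 had log2 fold changes of -0.79 and -0.44 (adjusted p = 0.121 and 0.170, edgeR). The 3 higher genes were Nfkbib, Nfkbiz and Nfkbil1, with log2 fold changes of 0.47, 0.38 and 0.47 (adjusted p = 0.217, 0.321 and 0.233, edgeR). Among the 5 lower was an IkappaB gene, Nfkbid, with only 0 to 21 counts per library. It was at 0.59, 0.70 and 1.435 CPM across controls and 0, 0.50 and 0.46 CPM across knockouts. Its log2 fold change was -1.36 ± 0.81 (SE; adjusted p = 0.354, edgeR). Without control 3 and knockout 1 together Tnfaip8, which is not an IkappaB gene, was the 1 gene of this list past the threshold. Its log2 fold change was 1.09 (adjusted p = 0.0319, edgeR).

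Most ligand genes had few counts. Of 10 ligand genes 5 were tested, with 0 past the threshold in edgeR, in DESeq2 or at an unadjusted p under 0.05. Tnf was at 0.38 to 0.98 CPM and Il1b at 0.29 to 1.80 CPM over the 6 libraries. Ltb, the lymphotoxin beta gene, had a log2 fold change of 0.49 ± 0.33 (SE; adjusted p = 0.402, edgeR). Il18, the one with the highest level, was at 15.7, 5.94 and 0.89 CPM for control 1, 2 and 3, against 11.5 to 21.4 CPM across knockouts, so the controls spread more widely than the group means did.

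Textbook NF-kappaB target genes were read as a further list. Of 40 listed 27 were tested, with 0 past the threshold in edgeR, 4 at an unadjusted p under 0.05 (22.1% of all genes) and 3 past it in DESeq2 (Saa3, Psmb9 and Fth1; 11.8% of all genes). The log2 fold changes were positive for 20 of the 27 and for 7210 of all 13762 tested genes, with medians of 0.25 and 0.03. The groups did not overlap for 5 of the 27 (32.4% of all genes), 4 higher and 1 lower in the knockout. The lower gene was Bcl2l1, at 65.0, 66.3 and 84.6 CPM across controls and 49.4, 56.3 and 50.5 CPM across knockouts. Its log2 fold change was -0.47 (unadjusted p = 0.0263, adjusted p = 0.173, edgeR). Saa3, an acute-phase serum amyloid gene, was at 0.68, 0.45 and 2.32 CPM across controls and 36.7, 16.3 and 1.03 CPM in knockout 1, 2 and 3. Knockout 3 lay within the control range, and the adjusted p was 0.113 in edgeR and, without knockout 3, 0.0357. Psmb9, an immunoproteasome subunit gene that interferon also induces, was at 6.83, 7.41 and 9.09 CPM across controls and 31.0, 12.5 and 13.4 CPM across knockouts (adjusted p = 0.114, edgeR). Fth1, the ferritin heavy chain gene, was at 677, 836 and 406 CPM across controls and 2637, 1255 and 949 CPM across knockouts (adjusted p = 0.156, edgeR). Knockout 1 was the highest library for Saa3, Psmb9 and Fth1, as it was for the members Nfkbia, Bcl3 and Relb. The chemokine gene Cxcl2, named after its values were seen, was at 4.06 CPM in knockout 1 and at 0 to 0.39 CPM in the other 5 libraries. Other genes went the opposite way. Knockout 1 was the lowest library for the targets Gadd45b (0.90 CPM), Vcam1 (2.40 CPM), Csf1 (7.965 CPM) and Xiap (49.0 CPM). It was also the lowest for the members Nfkb1 (37.5 CPM), Rel (0.45 CPM) and Tnfaip3 (7.36 CPM). These targets were also named after their values were seen. Without control 3 and knockout 1 together 3 target genes passed in edgeR (8.76% of all genes): Psmb9, Mmp9 and Ccnd1 (log2 fold changes 0.86, 1.79 and 0.65).

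Among p62 and its partners 1 of 10 tested genes passed (5.07% of all genes), Prkci, which encodes an atypical protein kinase C known to bind p62. It was at 181, 148 and 231 CPM across controls and 82.9, 105 and 100.1 CPM across knockouts, so all knockouts lay below all controls. Prkci fell by 0.96 ± 0.22 on the log2 scale (SE; adjusted p = 0.0475, edgeR), and the call was lost without any 1 library (adjusted p = 0.0542 to 0.140). It was also lost with the other 3 scalings (adjusted p = 0.0521 to 0.0671) and with no count filter (0.0520). It was kept in DESeq2 (0.00206), in limma-voom (0.0466), at a filter of 1 CPM (0.0457) and without control 3 and knockout 1 together (0.0374). The related gene Prkcz stood at 18.6 to 21.6 CPM across controls and 15.9 to 22.8 CPM across knockouts, and Keap1 at 67.2 to 76.5 and 67.9 to 77.4 CPM. Prkci, Birc3, Tnip1 and Nfkb1 had no overlap with lower knockouts, as did 18.3% of all tested genes. Prkci, Birc3 and Tnip1 were named for the smallest p of their lists, so this likeness is not read as a result.

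**Figure D5:**
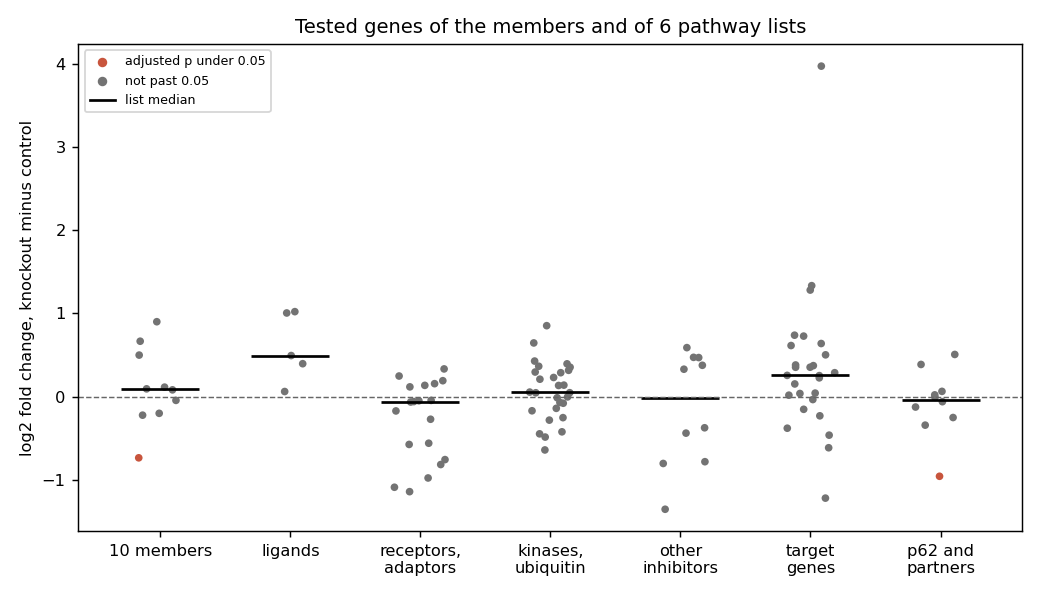
Log2 fold change, knockout minus control, for each tested gene of the 10 members and of the 6 pathway lists, with list medians as black lines and genes past the threshold in red. The genes past it are Nfkb1 and Prkci, both lower, and Saa3 stands highest at 3.98 without passing.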

How the data were processed

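Raw counts of reads per gene symbol in 6 libraries, not normalized, are what the authors deposited. Per the submitters' processing notes STAR, DESeq2 and mm10 were used, with no versions or roles. The kits preserve strand, per the labels' protocols. How reads were counted, and on which annotation and strand, is not given in the sources used here. All 6 columns matched sample titles.

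Counts were fitted over the whole table with edgeR 4.0.16 in R 4.3.3: expression filter at a minimum count of 10 (13762 genes, all 10 members included), TMM scaling, quasi-likelihood F test of 3 knockout against 3 control libraries with no covariate, Benjamini-Hochberg adjustment over all tested genes and a threshold of 0.05. Each SE is the log2 fold change over the root of F. The common coefficient of biological variation came to 32.5%. DESeq2 1.42.0 and limma-voom (limma 3.58.1) were alternatives, with other scalings, filters, thresholds and left-out libraries. A chi-square per gene of 52.4 or more for each pair of libraries showed no duplicated library.

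The members, lists and alternatives were chosen with earlier results of these data known. Named genes were all members, Sqstm1, the nearest profiles of Nfkb1 and Traf6, and in each list the genes past the threshold or otherwise the 3 with the smallest p; other list genes were named after their values were seen. Coordinates and exon lengths are from GENCODE M21 (GRCm38), promoters from RefSeq.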

Additional observations from a re-analysis of the deposited data

How the results depend on the processing

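No paired analysis was possible because the labels give no replicate number shared between groups. Counts of called genes over the table moved from 698 to 1618 in DESeq2, 1229 without control 3 and knockout 1 together, and 1190 and 246 at thresholds of 0.1 and 0.01, and ranged from 255 to 551 with 1 library left out. The count of members past the threshold was 0 with upper-quartile scaling, with no count filter, at the threshold of 0.01 and with each library left out in turn (range 0 to 0), and 2 in DESeq2. In DESeq2 the lists gave 1 kinase or ubiquitin gene, 2 receptors or adaptors, 1 other inhibitor and 3 target genes against 0. Without control 3 and knockout 1 together there were 1 gene of the list of other inhibitors (Tnfaip8) and 3 target genes. With 1 library left out receptors and adaptors ranged from 0 to 1, target genes from 0 to 1 and p62 partners from 0 to 0.

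Of 139 member values under alternatives 12 changed sign, all in members not past the threshold. With library size alone, which moved the median of all genes to -0.10, the log2 fold change was -0.015 for Nfkb2, -0.011 for Rela and -0.038 for Ikbkb. Rel was at 0.00044 with upper-quartile scaling and 0.27 without control 3 and knockout 1 together, where Ikbkb was at -0.012. With 1 library left out the range was -0.044 to 0.25 for Nfkb2, -0.45 to 0.19 for Rel and -0.028 to 0.18 for Ikbkb. The causes of these moves were not tested. Rel was not tested at 1 CPM in 3 libraries. The depth of 6 to 27 counts limits Rel, and the 3 libraries a group limit all members.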
